A study of Mus musculus with 2 samples.

Results

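The 9 genes described here, Mmp8, Mmp9, Retnlg, Cxcr2, Cxcr4, Fpr1, Fpr2, Thbs1 and Trpm2, encode gelatinase-granule enzymes, chemoattractant receptors and other products of late neutrophils, and were taken by name from the 32285 genes counted in each library. The cells were CD45.2+Kit+ bone marrow cells of mice, sampled 10 weeks after transplantation and profiled by CITE-seq, which reads transcripts and antibody barcodes of single cells in droplets. CD45.2 is a form of the leukocyte surface protein CD45 that lets transplanted cells be told from host cells, and Kit (CD117) is the receptor that marks blood stem and progenitor cells. The series held 1 library of control cells and 1 library labelled Utx deleted (called the Utx-labelled library here), with no strain, allele, Cre driver, sex or number of animals in the labels. UTX is the histone demethylase encoded by Kdm6a and sits in the protein complexes built around MLL3 and MLL4. The series title concerns what MLL3 and MLL4 do for stem cells and for the choice between myeloid and B-cell fates apart from enzyme activity. Each library carried 2 hashtags, antibody barcodes that mark pools of cells. The labels do not say whether a hashtag marks an animal, and nothing ties hashtag 1 of one library to hashtag 1 of the other, so hashtags were not treated as replicates and ratios are given over the 4 possible pairings of a control hashtag with one of the Utx-labelled library. Each group was a single library, so no test between conditions could be made, and every difference below is a difference between these 2 libraries.

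Late neutrophils were the cells in which 6 granule genes (Ltf, Camp, Ngp, S100a8, S100a9 and Lcn2) gave at least 2% of gene UMIs (unique molecular identifiers, which count single captured transcripts) and the cycle genes Mki67 and Top2a together gave at most 1 UMI. None of the 9 genes took part in that rule. They were 3101 of 7011 kept control cells (44.2%, 95% interval 43.1 to 45.4) and 3618 of 7206 cells of the Utx-labelled library (50.2%, 49.0 to 51.4). The difference was 5.98 points. By hashtag the control shares were 40.4% and 48.2% and those of the Utx-labelled library 54.3% and 48.8%. Both of the latter were above both control shares, by 0.60 to 13.9 points over the 4 pairings. The control hashtags lay farther apart than the pooled libraries. The intervals of the 48.2% (46.6 to 49.9) and the 48.8% (47.2 to 50.5) overlapped. The other cells were of 2 kinds. Granule-rich other cells passed the granule limit but carried more cycle-gene UMIs (2168 control cells and 1993 of the other library), and granule-poor cells fell under it (1742 and 1595).

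Neutrophils mature in the bone marrow from dividing precursors that fill azurophil and then specific granules to post-mitotic cells that make gelatinase granules and take up the receptors that guide them to sites of infection. CXCR4 binds CXCL12 and holds neutrophils in the marrow, whereas CXCR2 binds ELR-type CXC chemokines and favours their release. Formyl peptide receptors sense bacterial and mitochondrial peptides, and the matrix metalloproteinases MMP8 (neutrophil collagenase) and MMP9 (gelatinase B) digest collagens once granules are released.

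The stretches upstream of the start site are shown for 3 of the genes, for Mmp8 and Retnlg because they had the widest gap in level between late neutrophils and other cells in the control library, and for Trpm2 because its level differed most between the libraries. Each is the 250 bases before the RefSeq start on build GRCm38.p6, with matches on either strand to TTNNGNAA (a loose form of the C/EBP site) or GAGGAAGT (a form of the PU.1 site) in capitals. The windows are at chr9:7558179-7558428 on the plus strand for Mmp8, chr16:48872358-48872607 on the plus strand for Retnlg and chr10:77969873-77970122 on the minus strand for Trpm2.
Mmp8: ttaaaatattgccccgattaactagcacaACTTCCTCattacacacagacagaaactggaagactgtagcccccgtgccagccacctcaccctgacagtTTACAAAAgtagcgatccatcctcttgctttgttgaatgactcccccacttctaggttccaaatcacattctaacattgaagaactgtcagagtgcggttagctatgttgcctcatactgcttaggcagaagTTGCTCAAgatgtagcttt
Retnlg: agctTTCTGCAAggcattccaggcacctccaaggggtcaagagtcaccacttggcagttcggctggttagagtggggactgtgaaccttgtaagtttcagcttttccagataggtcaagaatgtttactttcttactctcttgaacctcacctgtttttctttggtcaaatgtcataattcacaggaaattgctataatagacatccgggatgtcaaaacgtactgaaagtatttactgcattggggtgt
Trpm2: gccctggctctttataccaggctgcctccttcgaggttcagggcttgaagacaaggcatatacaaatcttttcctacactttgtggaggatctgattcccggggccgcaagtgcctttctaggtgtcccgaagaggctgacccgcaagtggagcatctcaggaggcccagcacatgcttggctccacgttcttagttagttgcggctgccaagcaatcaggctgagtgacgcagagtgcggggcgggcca
In these stretches Mmp8 had 2 matches to TTNNGNAA and 1 to GAGGAAGT (read on the other strand as ACTTCCTC), Retnlg had 1 to TTNNGNAA, and Trpm2 had none of either. Of the 9 genes, 7 had an entry in the promoter table, which covers 250 bases before and 50 after the start (not Mmp9 or Thbs1). Over those full windows TTNNGNAA was found in 5 of 7 (1 match in Cxcr4, 3 in Fpr1 and 3 in Fpr2 besides Mmp8 and Retnlg), GAGGAAGT in Mmp8 alone, and the palindromic C/EBP form TTGCGCAA, which is contained in TTNNGNAA, in 0. Of all 32851 windows of that length 40.7% held TTNNGNAA, 3.20% held GAGGAAGT and 0.183% held TTGCGCAA, so a match to the first is common. A match is a string of letters and does not show that a factor binds.

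The late neutrophils gave 24294363 and 32403942 gene UMIs, with medians per cell of 7567 (control) and 8427 UMIs. Levels are UMIs per 1000000 gene UMIs of the cells named (CPM). Intervals (95%) are exact Poisson for levels and exact Clopper-Pearson for shares, and reflect counting error only. Because the 3′ assay counts 1 end of each transcript, levels of different genes can be set side by side without a correction for length. Kdm6a stood at 110 CPM in the late neutrophils of both libraries, and 3′ counts do not show whether an internal part of the gene is missing, so the counts do not check the label. The label "late neutrophil" fitted Ly6g (765 and 965 CPM, in 89.4% and 94.0% of cells), Csf3r, Msrb1, Mxd1 and Hdc, and 10 of 11 mature neutrophil markers were detected in at least 10% of cells in each library. Il1b, a marker of fully mature neutrophils, was nearly missing (8.64 and 1.30 CPM). The 11 mature neutrophil markers summed to 3658 and 3449 CPM. Of these, Ly6g, Mxd1 (693 and 746 CPM) and G0s2 (268 and 271 CPM) were higher in the Utx-labelled library. The others were lower there, among them Hdc (577 and 340 CPM), Il1r2 (149 and 88.2 CPM), Clec4e (107 and 63.7 CPM) and Trem1 (71.0 and 45.1 CPM). Of 8 markers each, 0 of the monocyte progenitor list (summed level 23.9 and 26.0 CPM) and 0 of the B-cell progenitor list (12.5 and 2.62 CPM) were detected in 10% of late neutrophils. The next 3 lists had at most 1 such marker in a library. The stem and multipotent progenitor list summed to 555 and 456 CPM, of which Ifitm3, in 89.1% and 81.5% of cells, gave 531 and 432 CPM. The dendritic list summed to 57.7 and 78.5 CPM, with Tcf4 in 15.2% and 25.4% of cells, and the macrophage list to 27.9 and 22.6 CPM, with Hmox1 in 10.1% of control cells. Of the 7 neutrophil progenitor markers 6 were detected in at least 10% of late neutrophils in each library. They summed to 643 and 679 CPM, with Calr highest in the control library (133 CPM, in 52.0% of cells) and Elane in the other (177 CPM, in 36.5%). Late neutrophils with over 0.5% of UMIs from azurophil protease genes numbered 13 and 18 (0.42% and 0.50%), and the alternatives included leaving them out. The part of other cells with progenitor markers in the differences between the libraries was not tested. Between them 17 barcodes occurred in both libraries, 7 and 8 of them among the late neutrophils.

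All 9 genes had a higher CPM in late neutrophils than in other cells of the same library, and 8 of 9 were at least 2-fold higher in each. Of all genes tested, 10.2% were at least 2-fold higher in late neutrophils in the control library and 8.92% in the Utx-labelled library. The exception was Cxcr4, with log2 ratios of late neutrophils over other cells of 0.80 and 0.72. Per cell the order of Cxcr4 was the opposite, with 1.40 UMIs in late neutrophils and 2.20 in other cells of the control library. The values were 1.59 and 2.47 in the other library. Cxcr4 was detected in 70.3% of late neutrophils and 79.6% of other cells of the control library. These values follow depth, as control other cells had a median of 18706 UMIs and control late neutrophils 7567. At 2000 UMIs per cell Cxcr4 was detected in 30.1% of late neutrophils and 19.5% of other cells of the control library. The shares were 31.1% and 20.7% in the Utx-labelled library, so the order in detection was not reversed at a common depth. The widest ratios in the control library were those of Mmp8 (6.10, and 5.32 in the Utx-labelled library), Retnlg (5.86 and 5.56), Thbs1 (5.78 and 4.91) and Fpr1 (5.04 and 4.67), followed by Mmp9 (4.44 and 4.29), Trpm2 (4.01 and 4.66), Cxcr2 (3.54 and 4.35) and Fpr2 (3.36 and 2.55). Per cell Fpr2 was close to granule-rich other cells in the Utx-labelled library, with 2.99 UMIs in late neutrophils and 2.33 in those cells, against 2.04 and 0.97 in the control library. At 2000 UMIs per cell Fpr2 was detected in 48.1% of late neutrophils and 20.2% of granule-rich other cells of the Utx-labelled library. The shares were 40.2% and 11.8% in the control library.

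**Figure D1:**
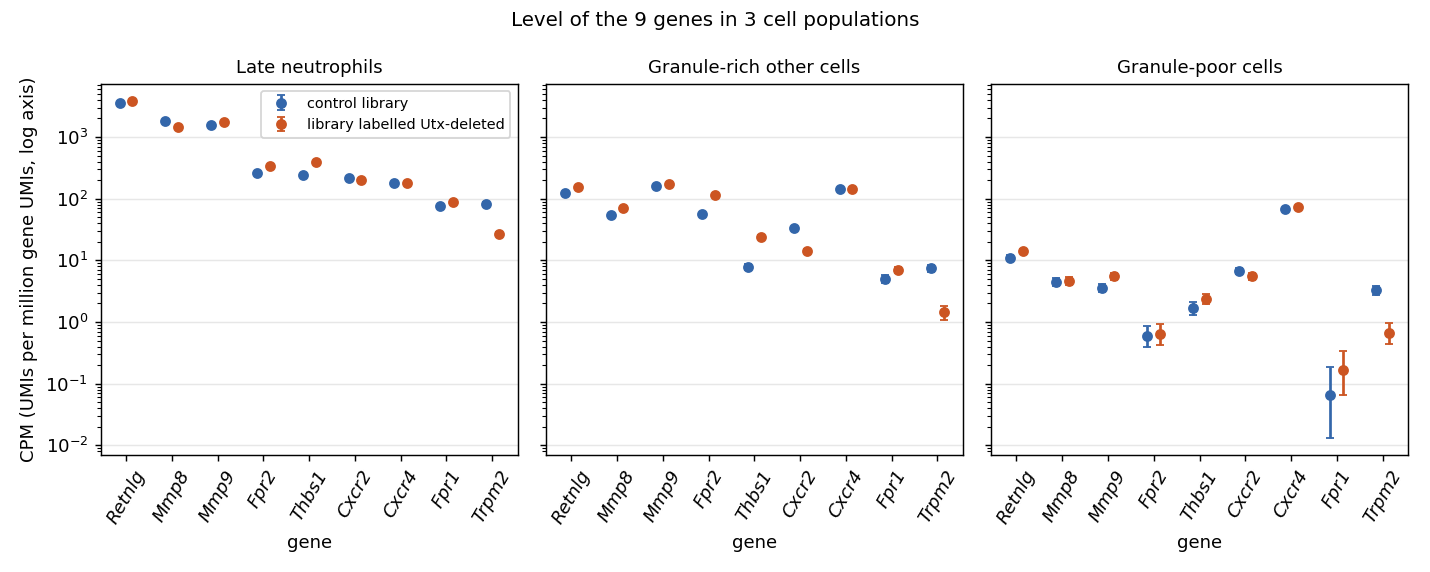
Level of each of the 9 genes in CPM (log axis) in late neutrophils, granule-rich other cells and granule-poor cells, for the control library and the Utx-labelled library, with 95% Poisson intervals (counting error only). Retnlg, Mmp8 and Mmp9 stand above the other 6 genes in late neutrophils in both libraries, and Cxcr4 is the highest of the 9 genes in granule-poor cells, at 68.9 and 73.8 CPM.

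Granule-poor cells, which include the stem and progenitor cells, showed how much of each gene can be counted in cells of other kinds. Fpr1 was counted there at 0.065 and 0.17 CPM (3 and 7 UMIs) and Fpr2 at 0.60 and 0.64 CPM, in 1.3% and 1.5% of cells, although these cells had a median of 26720 and 25793 UMIs. Retnlg reached 11.1 and 14.3 CPM, Mmp8 4.48 and 4.58 CPM and Mmp9 3.56 and 5.49 CPM there, and the granule gene Camp, which these cells were chosen to lack, still gave 177 and 212 CPM in 97.0% and 98.0% of them. Free RNA and neutrophil doublets give such counts, and their part in these levels was not tested. Cxcr4 was different, with UMIs in 70.6% and 73.5% of granule-poor cells.

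The collagenase gene Mmp8 stood at 1847 CPM (1830 to 1864) in control late neutrophils and at 1474 CPM (1460 to 1487) in those labelled Utx-deleted, a log2 ratio of −0.33 (−0.34 to −0.31). It was detected in 63.5% of control late neutrophils and in 58.2% of those of the other library, and at a common depth of 2000 UMIs per cell in 57.7% and 50.1%. The control hashtags gave 1698 and 2036 CPM and those of the other library 1524 and 1531 CPM, so the lower level was found in all 4 pairings (−0.42 to −0.15). It was not found at each granule share, since Mmp8 was higher in the Utx-labelled library in 4 of 5 bins of that share, from 3835 against 3988 CPM at 20 to 25% to 131 against 543 CPM at 35% and over, and lower at 2 to 20%. With the same weights of these bins in both libraries the log2 ratio was 0.20. The order was the opposite in granule-rich other cells, with 54.7 CPM in the control library and 71.0 CPM in the Utx-labelled library (log2 ratio 0.38, 0.29 to 0.46). Few cells carried that value, since 12.9% and 15.3% of granule-rich other cells held an Mmp8 UMI and the tenth with the most held 96.9% and 96.3% of the UMIs. Over all other cells the ratio of 0.45 became −0.13 with the cycle-gene limit at 0 UMIs and −0.0062 after thinning to 2000 UMIs per cell.

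The gelatinase B gene Mmp9 differed little. It stood at 1589 CPM and 1722 CPM in the late neutrophils (log2 ratio 0.12, 0.10 to 0.13) and was detected in 89.6% of control cells, more than any other of the 9, and in 87.3% of cells labelled Utx-deleted, where Fpr2 was detected in 88.1%. The tenth of late neutrophils with the most Mmp9 held 24.5% and 25.9% of its UMIs, the lowest such share of the 9. That share also depends on the count per cell, which was 12.4 and 15.4 UMIs for Mmp9. For Cxcr4, with 1.40 and 1.59 UMIs per cell, it was 30.4% and 29.7%. The share therefore does not rank the genes by evenness apart from their level. Its level in granule-rich other cells was 159 and 175 CPM, and 45.8% and 49.3% of those cells already held a UMI.

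Retnlg, which encodes resistin-like gamma, a secreted protein made by mature neutrophils, was the highest of the 9 at 3595 CPM (3571 to 3619) in the control library and 3888 CPM (3866 to 3909) in the other (log2 ratio 0.11). Its counts were uneven, as the median cell held 5 and 4 UMIs whereas the tenth with the most held 50.9% and 54.1% of all Retnlg UMIs. The control hashtags gave 3155 and 4130 CPM and those of the other library 4147 and 3974 CPM, and the log2 ratio ran from −0.056 to 0.39 over the 4 pairings. The control hashtags thus lay farther apart than the pooled libraries. With 5 bins of granule share weighted alike in both libraries it was 0.61.

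Of the chemokine receptor genes, Cxcr2 was close in level and apart in spread. It stood at 217 CPM (211 to 223) and 199 CPM (194 to 204) in the late neutrophils (log2 ratio −0.12, −0.17 to −0.07, and −0.22 to 0.061 over the pairings of hashtags), yet it was detected in 64.4% of control cells and in 51.8% of cells labelled Utx-deleted, and at 2000 UMIs per cell in 33.5% and 27.9%. The tenth of cells with the most Cxcr2 held 36.6% (control) and 45.2% of its UMIs. Among granule-rich other cells Cxcr2 was at least 2-fold lower in the Utx-labelled library, at 33.2 against 14.2 CPM (log2 ratio −1.23, −1.37 to −1.08), and this held in all 4 pairings of hashtags (33.2 and 31.2 CPM in control, 11.7 and 14.0 CPM in the other). Granule-poor cells gave Cxcr2 levels of 6.77 and 5.51 CPM.

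Cxcr4, the retention receptor, was the gene with the least difference. Its level in late neutrophils was 178 CPM in both libraries (log2 ratio −0.0048, −0.062 to 0.053), and in granule-rich other cells it was 145 and 144 CPM (log2 ratio −0.0049). The intervals of both ratios exclude a difference of 0.1 on the log2 scale as far as counting error goes. Among granule-poor cells grouped by marker lists, Cxcr4 was highest in the monocyte progenitor range (144 and 161 CPM in 54 and 93 cells).

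The formyl peptide receptor genes both had a higher pooled CPM in the Utx-labelled library. Fpr2 stood at 260 CPM (253 to 266) in control late neutrophils and at 334 CPM (328 to 340) in those labelled Utx-deleted (log2 ratio 0.36), with detection of 77.0% and 88.1%. Over the 4 pairings of hashtags the ratio was 0.32 to 0.39. In granule-rich other cells Fpr2 was at 56.0 and 116 CPM, a log2 ratio of 1.06 (0.98 to 1.13), and 44.9% and 73.0% of those cells held a UMI. Fpr1 stood at 75.4 and 89.9 CPM in late neutrophils (log2 ratio 0.25, 0.17 to 0.34), and its ratio was 0.12 to 0.51 over the 4 pairings. Fpr1 gave 189 and 282 UMIs in granule-rich other cells, at 5.04 and 7.08 CPM. Fpr1 (chr17:17876471-17883940, minus strand) and Fpr2 (chr17:17887824-17893952, plus strand) are neighbours and similar in sequence, so how reads were split between them and their relatives is uncertain. Their relative Fpr3 stood at 25.4 and 34.5 CPM.

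Thbs1 encodes thrombospondin 1, a matrix glycoprotein best known from platelets, and in late neutrophils it was at 243 CPM (237 to 249) in the control library and at 390 CPM (383 to 397) in the Utx-labelled library, a log2 ratio of 0.68 (0.64 to 0.73). It was detected in 34.7% and 50.1% of cells, and cells with 10 or more Thbs1 UMIs made up 5.97% and 12.2%. The hashtags of each library differed. Those of control gave 182 and 304 CPM and those of the Utx-labelled library 473 and 340 CPM, so that both of the latter were above both of the former and the log2 ratio ran from 0.16 to 1.38 over the 4 pairings. The 2 hashtags of the control library thus differed by 0.74 on the log2 scale, more than the 2 libraries did when pooled. In granule-rich other cells Thbs1 was at 7.82 against 24.2 CPM (1.63, 1.44 to 1.82), and by hashtag at 6.76 and 8.16 CPM (control) and at 27.2 and 18.0 CPM, higher in all 4 pairings. Of 8 megakaryocyte and platelet markers, only Rap1b, which many blood cells express, was detected in at least 10% of late neutrophils, and it gave 442 of the 447 CPM summed over the list in the control library and 401 of 404 CPM in the other. The part of megakaryocyte RNA in the Thbs1 difference was not tested.

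Trpm2, a calcium-permeable channel gated by ADP-ribose and oxidative stress, was the only one of the 9 genes past 2-fold in late neutrophils. It stood at 83.1 CPM (79.5 to 86.8) in the control library and at 26.5 CPM (24.8 to 28.3) in the Utx-labelled library, a log2 ratio of −1.65 (−1.76 to −1.53). Of control late neutrophils 40.8% held a Trpm2 UMI, against 17.2% of those labelled Utx-deleted, and at 2000 UMIs per cell the shares were 17.3% and 5.55%. By hashtag the level was 72.7 and 94.1 CPM (control) and 26.2 and 29.1 CPM, past 2-fold in all 4 pairings (−1.84 to −1.32). In granule-rich other cells it was 7.44 and 1.43 CPM (log2 ratio −2.36, −2.82 to −1.96) and in granule-poor cells 3.28 and 0.66 CPM (log2 ratio −2.26), so the gene was lower in the Utx-labelled library in all 3 populations. In the ranges of granule-poor cells named by markers, neutrophil progenitors gave 3.11 and 0.46 CPM and stem and multipotent progenitors 3.71 CPM in the control library and 1 UMI in the other.

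The 9 genes were then read against all genes. In late neutrophils 0 of 9 were at least 2-fold higher in the Utx-labelled library, where 1.38% of 9484 genes with at least 100 UMIs were, and 1 of 9 was past 2-fold downwards, where 3.36% were. Trpm2 ranked 136 from the lowest ratio of the 9484, and Thbs1 ranked 303 from the highest. The median log2 ratio was 0.11 over the 9 genes and −0.046 over all 9484. In granule-rich other cells 2 of 9 were past 2-fold upwards (Fpr2 and Thbs1) beside 1.89% of 10752 genes, and 2 of 9 downwards (Cxcr2 and Trpm2) beside 2.45%. In granule-poor cells 7 of 9 reached 100 UMIs, of which 1, Trpm2, was at least 2-fold lower, beside 4.55% of 12515 genes, and 0 were at least 2-fold higher, beside 1.58%. Over all other cells together 2 of 9 were past 2-fold upwards (Fpr2 and Thbs1) and 1 of 9 downwards (Trpm2), beside 1.42% and 4.83% of 13215 genes. In late neutrophils 5 of the 9 were above and 4 below a ratio of 0, of which Cxcr4 had an interval that spanned 0 (−0.062 to 0.053), and in other cells 7 were above and 2 below. With the same weights of 5 bins of granule share in both libraries, all but Trpm2 were above 0 in late neutrophils.

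**Figure D2:**
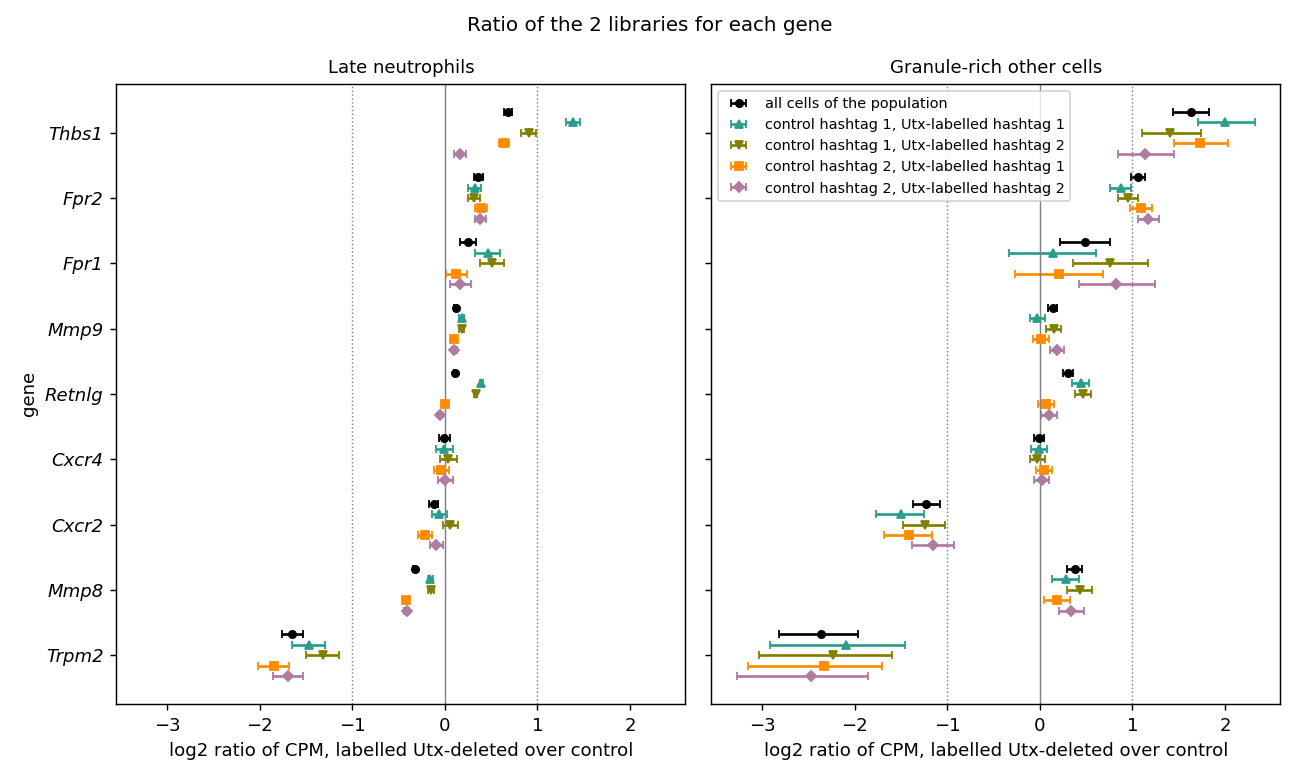
Log2 ratio of CPM, library labelled Utx-deleted over control, for each gene in late neutrophils and in granule-rich other cells, over all cells (circles) and for each of the 4 pairings of a control hashtag with a hashtag of the other library (other symbols), with 95% exact binomial intervals of the counts; dotted lines mark 2-fold. Trpm2 lies beyond the lower line in all pairings in both panels, and Thbs1 in late neutrophils runs from 0.16 to 1.38.

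Within the late neutrophils the 9 genes varied far more than between the libraries. The cells were binned by the share of UMIs from ribosomal protein genes, a share that is lower in late neutrophils (median 2.40% and 2.34%) than in granule-poor cells (21.1% and 23.4%). From the bin with the highest to the bin with the lowest ribosomal share, Retnlg went from 453 to 9012 CPM in the control library and from 305 to 9896 CPM in the other. Mmp8 went from 186 to 4350 CPM and from 148 to 3548 CPM, and Thbs1 from 24.1 to 579 CPM and from 46.2 to 994 CPM. Cxcr4 varied least, from 152 to 206 CPM and from 137 to 222 CPM. All 9 genes were higher in the lowest than in the highest ribosomal bin in both libraries, and each bin held between 18.1% and 21.6% of a library's late neutrophils.

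**Figure D3:**
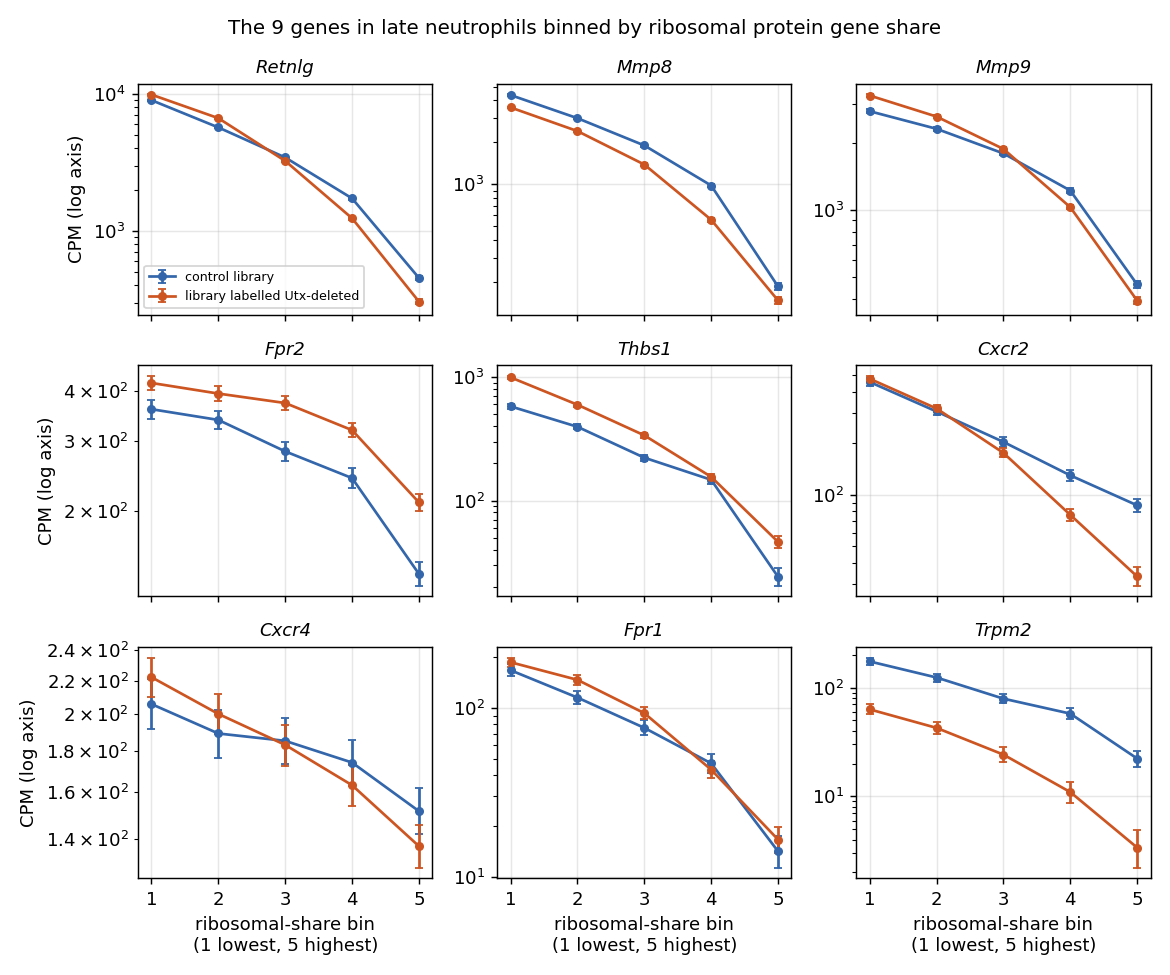
CPM (log axis, own range per panel) of the 9 genes in late neutrophils in 5 bins of the ribosomal protein gene share, 1 being the lowest share, for both libraries, with 95% Poisson intervals. All 9 genes are lowest in bin 5, and the Trpm2 line of the Utx-labelled library runs below the control line in every bin.

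The libraries differed by bin for some genes. Trpm2 was lower in the Utx-labelled library in all 5 bins, from 174 against 63.1 CPM in the lowest ribosomal bin to 22.3 against 3.39 CPM in the highest. Fpr2 was higher in all 5, from 359 against 418 CPM to 139 against 210 CPM. Cxcr2 was alike in the lowest bin (458 and 478 CPM) and lower in the Utx-labelled library in the highest (86.9 and 33.3 CPM), which is the bin nearest to the granule-rich other cells. Thbs1 was higher in every bin of the Utx-labelled library, although its intervals overlapped in the fourth, at 147 and 155 CPM.

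The 9 genes also varied with the granule share, and this share was itself higher in the Utx-labelled library (median 32.5% against 27.4% in control). Retnlg went from 12469 CPM at a granule share of 2 to 20% to 342 CPM at 35% and over in the control library, and from 7005 to 1389 CPM in the other. Mmp8 went from 4351 to 131 CPM and from 2276 to 543 CPM. From a share of 20 to 25% upwards all 9 genes were lower in each bin than in the bin before it, in both libraries, whereas in the Utx-labelled library the bin of 2 to 20% (178 cells) had less Retnlg than the bin of 20 to 25% (10899 CPM). At a granule share of 30 to 35%, which held 750 and 1119 cells, Retnlg was at 868 and 3434 CPM, Thbs1 at 68.0 and 318 CPM and Trpm2 at 35.2 and 20.2 CPM. Since the whole distribution of granule share was shifted, cells of equal share in the 2 libraries need not be of equal stage, and the granule genes and the 9 genes share 1 total. Weighting 5 granule-share bins alike in both libraries gave log2 ratios of 0.20 for Mmp8, 0.38 for Cxcr2, 1.25 for Thbs1 and −1.03 for Trpm2. It gave 0.61 for Retnlg, 0.47 for Mmp9, 0.63 for Fpr1, 0.56 for Fpr2 and 0.15 for Cxcr4. Mmp8, Cxcr2 and Cxcr4 (pooled −0.0048) had the opposite sign to the pooled values, and Trpm2 remained past 2-fold. These bins were chosen after seeing the data, and with 4 coarser bins the ratios were −0.26 for Mmp8, −0.0040 for Cxcr2, 0.77 for Thbs1 and −1.48 for Trpm2, with no change of sign among these 4 genes, and 0.21 for Retnlg. The same weights of the ribosomal bins in both libraries gave −0.37 for Mmp8, −0.13 for Cxcr2, 0.64 for Thbs1, −1.66 for Trpm2 and 0.070 for Retnlg.

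Co-detection, read in cells thinned to 2000 UMIs, differed between pairs of genes. Among control late neutrophils Mmp8 was detected in 79.9% of cells with Retnlg and in 23.5% of cells without it, and in the Utx-labelled library in 74.7% and 17.2%. Mmp9 was detected in 97.6% and 98.1% of cells with Mmp8. Thbs1 was detected in 37.6% of control cells with Mmp8 and 3.88% of those without, and in 55.4% and 8.59% in the other library. Cxcr4 varied least with Retnlg, at 32.2% with it and 26.8% without it in control cells and at 33.2% and 28.3% in the others. The median late neutrophil held 4 of the 9 genes in the control library and 3 in the other, and 6.53% and 7.74% held 0. Thinning left out 116 and 50 shallower late neutrophils.

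**Figure D4:**
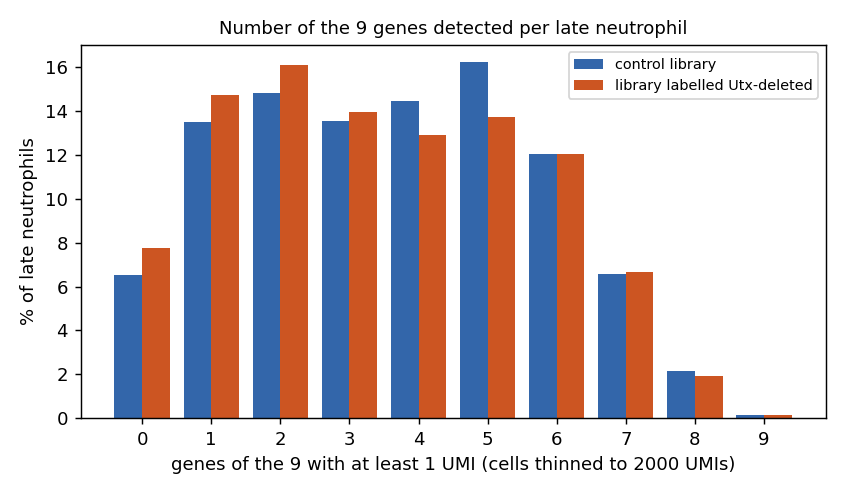
Share of late neutrophils (%) by the number of the 9 genes with at least 1 UMI, after each cell was thinned to 2000 UMIs, for both libraries. The shares spread over 0 to 7 genes with no single peak, and 8 or 9 genes together were seen in 2.31% of control cells and 2.10% of cells of the other library.

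The antibody counts gave a readout that neither the rule nor the genes used. The Gr1 antibody, which binds Ly6G and Ly6C, had a median of 2303 UMIs in control late neutrophils with Retnlg and 737.5 in those without it, and 2177 and 1061 in the Utx-labelled library. Gr1 took the same order as a share of all antibody UMIs, at 7533 and 4630 per 10000 in control cells and 7992 and 6272 in the others. CD11b ran the other way, with medians of 209 and 248 UMIs in control cells and 195 and 238 in the others. The CD117 antibody, which detects the Kit protein that the cells were isolated for, had medians of 13 and 15 UMIs in control late neutrophils with and without Retnlg and 8 and 10 in the others, against 166 and 163.5 in granule-poor cells. The cells that held most of the 9 genes' UMIs thus had CD117 counts far under those of the granule-poor cells of the same Kit-positive isolate.

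The genes whose level ran most like the mean of the 9 over 15 bins of granule share, cycle-gene UMIs and library were Adam8 (Pearson r = 0.991), Il1rn, Stx11, Mxd1, Bmx, Lcp1, Tmcc1, Gm34589, Lrrk2 and Slfn1 (0.981). The bins share libraries and depth, so r is a description. Of the 9 genes themselves Mmp8 was closest to their mean (0.994) and Trpm2 farthest (0.833). That mean contains each of these genes, so their r values cannot be set beside those of the genes above. Adam8, a membrane metalloproteinase of leukocytes, stood at 133 and 103 CPM in late neutrophils, and Mxd1, an antagonist of MYC that marks maturing neutrophils, at 693 and 746 CPM.

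Lists of related genes placed the 9 beside their pathways. The background for each list is the 1.38% of 9484 genes past 2-fold upwards and the 3.36% downwards in late neutrophils. Of 10 tested matrix metalloproteinases, related proteases and inhibitors, 0 were past 2-fold upwards and 2 downwards in late neutrophils of the Utx-labelled library, namely the inhibitors Timp2 (103 and 46.0 CPM) and Reck (log2 ratio −1.16). The membrane-anchored Mmp25 stood at 238 and 160 CPM. The list's median log2 ratio was −0.28 (−0.31 over its 8 tested genes outside the members), beside −0.046 over all genes. Of 13 tested chemoattractant receptors 0 passed 2-fold either way (median −0.091). That list includes Cxcr2, Cxcr4, Fpr1 and Fpr2, and the median over its 9 tested genes outside the members was −0.30. The leukotriene B4 receptor Ltb4r1 stood at 309 and 251 CPM and the complement receptor C5ar1 at 254 and 239 CPM. Of 4 tested ligands of these receptors 0 passed 2-fold (median −0.24). They included Anxa1, an FPR2 ligand, at 4278 and 3780 CPM, Ccl6 at 37.6 and 30.7 CPM and Mif at 16.8 and 16.7 CPM.

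Among 15 tested adhesion and egress genes 1 was at least 2-fold higher, Vcam1 (6.05 and 12.2 CPM), and 1 at least 2-fold lower, Itgal, which encodes the alpha chain of the integrin LFA-1 (159 and 58.7 CPM). Their median was −0.086, and Itgam, the alpha chain of the integrin Mac-1, stood at 1386 and 1295 CPM. Among 34 tested gelatinase-granule, secretory and late neutrophil genes 1 was past 2-fold upwards and 6 downwards, beside 1.38% and 3.36% of all genes, with a median of −0.46. The higher gene was Olfm4, a granule protein carried by a subset of neutrophils, at 157 and 1125 CPM. The lower genes were Dusp1 (38.6 and 5.46 CPM), the cytokine gene Il1b, Prok2 (11.5 and 4.38 CPM), Slc11a1 (12.7 and 5.25 CPM), the granule proteoglycan gene Srgn (176 and 76.5 CPM) and the properdin gene Cfp (82.2 and 39.2 CPM). The most abundant genes of that list, Lyz2 (16712 and 16195 CPM) and Chil3 (5674 and 7262 CPM), did not pass 2-fold.

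Of 9 tested TRP channel and calcium entry genes 2 were at least 2-fold lower, Trpm2 itself and Trpv2 (10.7 and 5.34 CPM), and 1 was higher, Pkd2 (1.36 and 4.57 CPM), beside the same background shares. Their median was −0.083, and −0.018 over the 8 without Trpm2. The store-operated calcium sensor Stim1 stood at 422 and 460 CPM, Stim2 at 268 and 198 CPM, and the channel gene Orai1 had a log2 ratio of −0.083. Of 15 tested regulators 2 were at least 2-fold lower, the AP-1 genes Fos (58.3 and 12.3 CPM) and Jun (16.9 and 8.24 CPM), and 0 were higher, beside 3.36% and 1.38% of all genes, with a median of −0.17. The genes of the factors whose motif forms were searched upstream stood close in both libraries, with Spi1, which encodes PU.1, at 469 and 458 CPM and Cebpe, which encodes the C/EBP protein of late granulopoiesis, at 327 and 361 CPM. Of the resistin family and the thrombospondins, Retnlg and Thbs1 alone reached 100 UMIs.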

How the data were processed

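The deposited files hold raw counts (UMIs) per gene or antibody tag and cell barcode, which the authors made with Cell Ranger 7.1.0 on build mm10, per the submitters' processing notes. The members and the lists were chosen with earlier results of these data known. Cells with at least 500 genes and under 10% mitochondrial UMIs were kept (349 and 214 barcodes failed). The automatic threshold of Scrublet did not work (it marked 0.0134% and 0% of cells), and the 6% highest scores were removed instead (467 and 463 cells), and doublets may remain. UMIs were summed per library and population with Python 3.11.15, scanpy 1.11.5 and scipy 1.17.1. Ratios are log2, with 1 UMI added to both sums, and counts of genes past 2-fold cover those with 100 or more UMIs in total. A hashtag was called at 100 UMIs and 5 times the other. Granule-poor ranges needed a granule share under 0.5% and 3 markers of 1 list. The procedure was checked on simulated counts. Named were all 9 members, list genes past 2-fold, up to 3 of the highest CPM per list and the 10 genes most like the members' mean over bins with at least 50 cells. Genes named besides these as cell markers, and Fpr3, were chosen after their values were seen. Gene positions are those of GENCODE M21. Alternatives included edgeR 4.0.16 TMM scaling, other limits and each hashtag alone. Chosen after seeing the data were crossed hashtags and the same weights of finer granule-share or ribosomal-share bins in both libraries. Late neutrophils without cells rich in azurophil protease UMIs, and each kind of other cells alone, were also chosen then. The weight of a bin was the mean of its shares of late neutrophils in the 2 libraries, so bins were not given equal weights. Protein sequences were not used here.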

Additional observations from a re-analysis of the deposited data

Results flagged for a closer look

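The Mmp8 ratio of the libraries had opposite signs in late neutrophils and in other cells. The log2 ratio, library labelled Utx-deleted over control, was −0.33 in late neutrophils (1847 and 1474 CPM) and 0.45 in all other cells (26.9 and 36.9 CPM). With 1 library per group the difference between the 2 ratios was not tested. Cells near the limit of 1 cycle-gene UMI move between the populations, and with Mki67 and Top2a at 0 UMIs the ratio in other cells was −0.13. Thinned to 2000 UMIs per cell it was −0.0062. The ratio in other cells rests on a minority of them, as 11.3% and 12.2% held an Mmp8 UMI and the tenth with the most held 97.7% and 97.4% of the UMIs.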

How the results depend on the processing

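No paired analysis was possible because each group has 1 library. Trpm2 kept its sign in late neutrophils under all 18 alternatives (−1.84 to −1.03), as did Thbs1 (0.16 to 1.38), Fpr2 (0.31 to 0.65), Fpr1 (0.073 to 0.63) and Mmp9 (0.096 to 0.47). The number of the 9 genes at least 2-fold lower stayed at 1 in all 18.

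With hashtag 1 alone the share difference was 13.9 points, 1 gene of the 9 (Thbs1) was 2-fold higher in late neutrophils, 2 were lower in other cells, and 202 of all genes were lower in late neutrophils. With hashtag 2 alone the share difference was 0.60 points, 0 of the 9 were 2-fold higher in other cells, 85 of all genes were higher in late neutrophils, and ratios turned for Retnlg in late neutrophils (−0.056) and for Retnlg (−0.047) and Cxcr4 (−0.0037) in other cells. Hashtag numbers are not tied between the libraries. With control hashtag 1 against hashtag 2 of the other library, a pairing added after seeing the data like its converse, the share difference was 8.47 points, Cxcr2 in late neutrophils was 0.061, 1 of the 9 was higher in other cells and 76 genes were higher in late neutrophils, and in the converse pairing 2 of the 9 were lower in other cells. Without barcodes carrying both hashtags, 2 of the 9 were lower in other cells. With Mki67 and Top2a at 0 UMIs, 1 of the 9 was higher in other cells and Mmp8 there was −0.13. With no limit on these genes the share difference was 2.71 points, 1 of the 9 was higher in other cells, and 199 genes were higher in late neutrophils. Thinned to 2000 UMIs, other cells had 1 of the 9 higher and 2 lower, with Mmp8 at −0.0062 and Retnlg at −0.13, and late neutrophils had 50 genes higher and 186 lower. In granule-rich other cells alone 2 of the 9 were lower and Cxcr4 was −0.0049, and in granule-poor cells alone 1 was higher when all 9 were counted without the minimum of 100 UMIs (Fpr1, with 3 and 7 UMIs) and 0 among the 7 that reached it. With finer granule-share bins 1 of the 9 was higher in late neutrophils, Mmp8 was 0.20 and Cxcr2 0.38. A minimum of 20 UMIs gave 385 genes higher and 660 lower in late neutrophils, a minimum of 500 UMIs gave 40 and 136, and a 1.5-fold threshold gave 394 and 747, against 131 and 319. The cause of these shifts was not tested, apart from the thresholds, which act by their construction. Granule-poor cells held 3 and 7 Fpr1 UMIs although they were sequenced more deeply per cell than late neutrophils.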
